A study of Mus musculus with 6 samples.

Results

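The fibrillar collagen genes were followed through muscle differentiation by the compartment in which each gene lay. The set held 9 genes, Col1a1, Col1a2, Col2a1, Col3a1, Col5a1, Col5a2, Col5a3, Col11a1 and Col11a2. Each was placed in the 500 kb interval (bin) that contained its transcription start site, so the members were 9 bins of 4727 autosomal bins with values in every condition, and 9 genes of 20807 coding genes placed. The set was selected on measured values of these same matrices, namely the compartment value in each condition, its scaled change after AraC and the correlation of each profile between conditions, so all of these are given below as a description. C2C12 is an established mouse myoblast line. Hi-C, which joins DNA ends that lie close together in the nucleus and counts the joined pairs, was performed on 6 libraries, 2 biological replicates of each of 3 conditions. Myoblasts (day 0) were proliferating, sub-confluent cultures that received no AraC. Myotubes were harvested on day 3 in differentiation medium, also without AraC, and these cultures still held undifferentiated myoblasts. AraC-treated myotubes were harvested on day 7 after AraC, a cytidine analogue that blocks DNA synthesis and so depletes dividing cells, had been added at 10 µg/ml. The effects of AraC, of the longer time in differentiation medium and of the loss of undifferentiated myoblasts cannot be told apart in this design. Cultures for myotubes were also plated more densely than those for myoblasts and moved to a medium with less serum. These differences cannot be told apart from differentiation itself.

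Fibrillar collagens are secreted proteins whose chains wind into a rope-like helix and pack side by side into banded fibrils. Col1a1 and Col1a2 encode the chains of type I collagen, and Col3a1 that of type III, which together form most of the fibrils in the connective tissue around muscle fibres. Col5a1, Col5a2 and Col5a3 encode type V chains, minor components that start fibrils and limit their width. Col2a1, Col11a1 and Col11a2 encode chains of the type II and type XI collagens that are best known from cartilage.

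The deposited values were correlation coefficients between the contact profiles of pairs of bins, with 1 matrix per condition for both replicates together. No spread between replicates could therefore be computed, and no difference below carries a test. The first principal component (PC1) of the coefficients within a chromosome was turned so that values above 0 marked the gene-rich A compartment (open chromatin) and values below 0 the B compartment (closed chromatin). Each PC1 value was divided by the SD of PC1 over the bins of that chromosome in that condition, which gave the scaled PC1 in SD units. PC1 carried 26.3% to 69.2% of the variance of the members' chromosomes in myoblasts, 60.7% to 90.3% in myotubes and 55.6% to 86.7% in AraC-treated myotubes. Compartment contrast was thus lower in the myoblast matrix, and its part in the differences below was not tested. As a check of the labels, 10 muscle loci were read the same way, and 7, 8 and 8 of them lay in A in myoblasts, myotubes and AraC-treated myotubes. The median scaled change of this list at differentiation was -0.00307, and its members did not move together, with Acta1 at -0.405, Tnnt1 at -0.392, Myog at -0.144 and Ttn at 1.27. The bin of Ttn, which encodes the giant sarcomere protein titin, went from a scaled PC1 of -0.113 in myoblasts to 1.15 in myotubes and 1.29 after AraC, whereas the bin shared by Myf5 and Myf6, early muscle regulators, stayed in B throughout.

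Fibrillar collagen bins lay mostly in A in myoblasts, and fewer did so at each later stage. In myoblasts 8 of 9 members were in A, against 38.3% of all autosomal bins. In myotubes 6 of 9 were in A, against 36.5% of all bins, and in AraC-treated myotubes 4 of 9, against 35.5%. Over the 3579 bins that held a coding gene, a closer match for bins picked by genes, the shares in A were 46.1%, 44.4% and 43.3%. The share of A bins over the genome thus changed little while the members' count fell from 8 to 4. That fall rests on values near 0: none of the 4 sign changes remained when bins in the lowest 20 percent of absolute PC1 of their chromosome in either condition were left out, and 2 of 4 (Col3a1 and Col5a3) remained without column centring before the decomposition. Col5a1, Col1a1, Col11a2 and Col2a1 were in A in every condition, Col11a1 was in B in every condition, and Col1a2, Col3a1, Col5a2 and Col5a3 began in A and ended in B. The latter group comprised a chain of type I collagen, the type III chain and a pair of the type V chains. Within it the bins of Col3a1 and Col5a2 are adjacent on the same chromosome, so they are not separate regions. In AraC-treated myotubes the order from high to low was Col5a1, Col2a1, Col11a2, Col1a1, Col3a1, Col5a3, Col1a2, Col5a2 and Col11a1, and with 1 matrix per condition no neighbours in this order could be separated by a replicate spread.

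**Figure D1:**
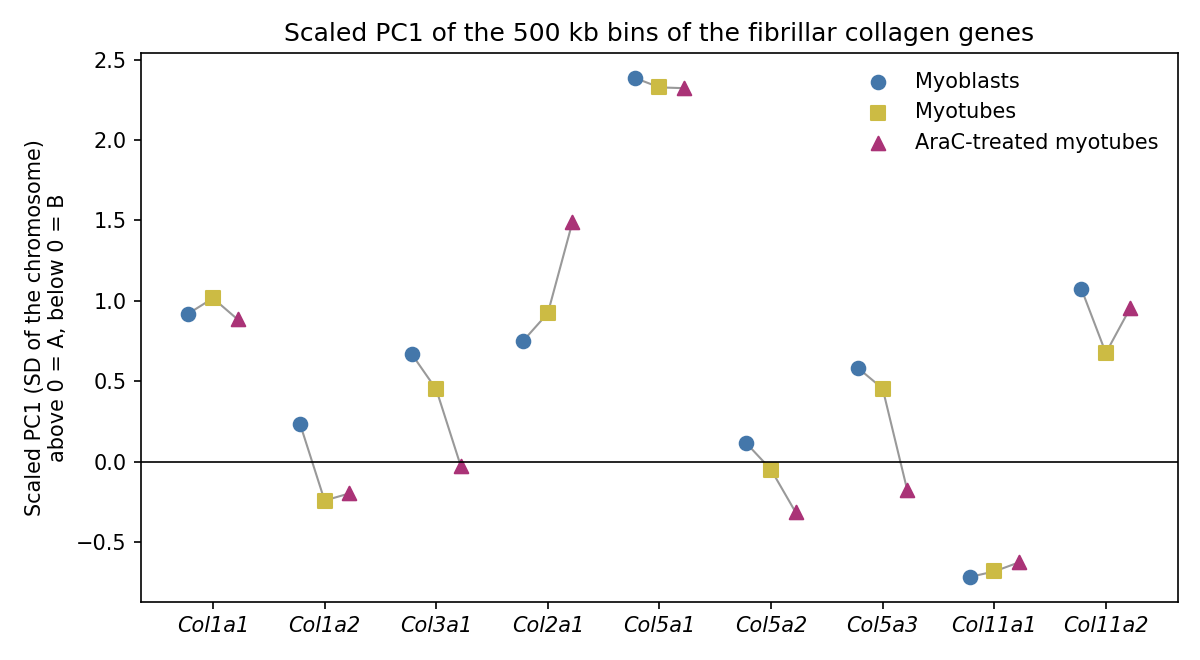
Scaled PC1 (vertical axis, in SD of the chromosome) of the bin of each fibrillar collagen gene, with a circle for myoblasts, a square for myotubes and a triangle for AraC-treated myotubes, 1 pooled value each. Col5a1 stays near 2.3, Col11a1 stays below 0, and Col1a2, Col3a1, Col5a2 and Col5a3 pass from above 0 to below it.

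Members that kept their place included the highest and the lowest compartment values of the set. The bin of Col5a1, the type V chain found in nearly every type V molecule, had a scaled PC1 of 2.39 in myoblasts, 2.33 in myotubes and 2.32 after AraC. It ranked above 97.2% to 97.9% of autosomal bins, and its profile of coefficients along chromosome 2 correlated with itself at r = 0.965 between myoblasts and myotubes and r = 0.990 between myotubes and AraC-treated myotubes. This A position was the highest of the set in each condition. Divided by the SD over all autosomal bins instead, its PC1 was 3.19, 2.88 and 2.89, so that the change at differentiation was -0.308 on that scale. The bin of Col1a1, the main chain of type I collagen, stood at 0.921, 1.02 and 0.885, with profile correlations of 0.968 and 0.989. That bin held 15 coding genes, among them Sgca, which encodes a sarcoglycan of the muscle membrane and was picked out here after its position was seen. The bin of Col11a2, a type XI chain whose gene lies inside the major histocompatibility complex among 24 coding genes, stood at 1.08, 0.675 and 0.957. Its dip in myotubes, -0.400, was lower than that of all but 5.33% of bins, yet the profile correlation was 0.922 and the bin did not leave A. The bin of Col11a1, the other type XI chain, stood at -0.718, -0.684 and -0.627, and held no other coding gene. It was the lowest of the set but not of the genome, since 27.7%, 31.6% and 36.6% of autosomal bins were lower. Its neighbours from 3 Mb before to 1 Mb after it were also in B in every condition, with the amylase genes Amy1 and Amy2a1 to Amy2a5 and the glycoprotein gene Olfm3 among their few genes.

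From myoblasts to myotubes, 2 of 9 members changed the sign of PC1, Col1a2 and Col5a2, both from A to B, against 7.32% of all bins that changed sign in either direction. A count of 2 among 9 members is too small to be read as a departure from that share. No member rose by at least 0.5 SD, against 3.83% of bins, and none fell by that much, against 2.96% of bins. No member had a profile correlation below 0, a value reached by 3.28% of bins. The median scaled change over the members was -0.127, beside -0.00645 over all bins. Without the bins of low absolute PC1, 0.275% of all bins changed sign and no member did.

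Col1a2, which encodes the partner chain of Col1a1 in type I collagen, showed the largest fall at differentiation. Its scaled PC1 was 0.234 before differentiation, -0.243 in myotubes and -0.198 after AraC. The drop of 0.477 SD came entirely with differentiation, and the later step was 0.0443. Only 3.38% of bins fell more between myoblasts and myotubes, and the profile correlation was 0.343, lower than in all but 9.12% of bins. The fall was not limited to the gene's own bin. The bin before it, with Gng11 and Bet1, changed by -0.395, and the bins from 0.5 to 2 Mb after it by -0.626, -0.600, -0.392 and -0.520. These held the paraoxonase genes Pon1, Pon2 and Pon3, the metabolic kinase gene Pdk4, the dynein gene Dync1i1, Slc25a13 and the homeobox genes Dlx5 and Dlx6. Col1a2 shared its own bin with Casd1, Sgce (another sarcoglycan gene), Peg10 and Ppp1r9a. With stable A bins of its chromosome (A in all 3 conditions) the mean coefficient of the Col1a2 bin went from -0.00136 to -0.0469, and with stable B bins from 0.00443 to 0.0472. In the component built only from contacts with other chromosomes the bin was already at -0.00720 in myoblasts and fell to -0.424 in myotubes, so that the fall was there while the change of sign was not. The same holds for PC1 without centring of the columns, where the fall passed 0.5 SD and the sign did not change. The 2 genes of type I collagen thus parted. In myotubes the bins of Col1a1 and Col1a2 stood at 1.02 and -0.243 on the scaled PC1, and the coefficient between them went from 0.0149 in myoblasts to -0.0940 in myotubes and -0.0669 after AraC.

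From myotubes to AraC-treated myotubes, 2 of 9 members changed sign, Col3a1 and Col5a3, both from A to B, against 5.12% of all bins in either direction. A fall of at least 0.5 SD was seen in 1 of 9 members, Col5a3, where 0.381% of bins fell that far. A rise of at least 0.5 SD was seen in 1 member, Col2a1, against 2.18% of bins. A profile correlation below 0 was seen in 1 member, Col3a1, against 1.16% of bins. Just inside the 0.5 SD limit lay Col2a1 at 0.564, and just outside it Col3a1 at -0.477. The median scaled change of the members, -0.00509, was close to that of all bins, -0.00989, and the movement lay in a few members. Each of these counts rests on 1 or 2 of the 9 genes. Col3a1 and Col5a3 ended near 0, and with the lowest 20 percent of absolute PC1 left out no member changed sign, nor did more than 0.0635% of all bins.

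**Figure D2:**
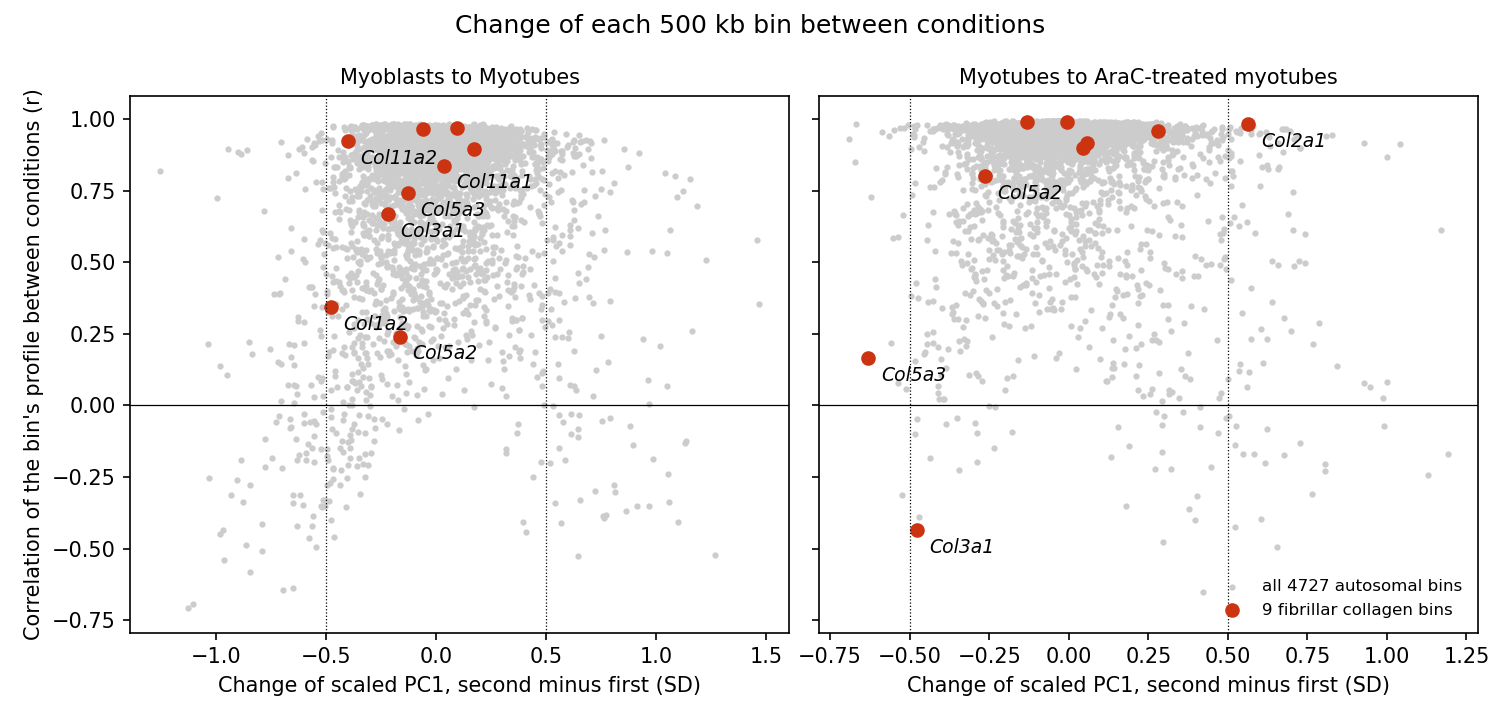
Each grey point is 1 of 4727 autosomal bins and each red point a fibrillar collagen bin, with the change of scaled PC1 (horizontal axis, SD) against the correlation of the bin's profile between the conditions (vertical axis, r), for myoblasts to myotubes and for myotubes to AraC-treated myotubes. In the second panel Col3a1 lies at r = -0.435 and Col5a3 at a change of -0.630 SD, away from the mass of bins, and the dotted lines mark changes of 0.5 SD.

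Col3a1, the type III collagen gene, was the member whose set of partners changed most after AraC. Its scaled PC1 fell at each stage, from 0.669 in myoblasts to 0.450 in myotubes and -0.0274 after AraC. The profile of the bin along chromosome 1 correlated at 0.668 between myoblasts and myotubes but at -0.435 between myotubes and AraC-treated myotubes, a value below which only 0.0635% of bins lay. Over all bins the median of that correlation was 0.947. With bins of other chromosomes the same correlation was -0.362, and 0.212% of bins were lower. The mean coefficient of the Col3a1 bin with stable A bins of chromosome 1 was 0.0289, 0.0243 and -0.0156 in myoblasts, myotubes and AraC-treated myotubes, while that with stable B bins was -0.0119, -0.00987 and 0.0185. Both means thus changed sign after AraC, and on other autosomes the difference between A and B partners went the same way, from 0.0267 to -0.0265. On chromosome 1 that difference was 0.0408 in myoblasts, 0.0342 in myotubes and -0.0341 after AraC, where its SD over all bins, each read on its own chromosome, was 0.0941, 0.189 and 0.158.

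The Col3a1 bin held no other coding gene and lay in a stretch with A bins, between B regions. Next to it on one side was the bin of Gulp1, an adaptor gene for the uptake of dying cells, which stood at 0.356, 0.131 and -0.238 and so also left A after AraC. On the other side was the bin with the start site of Col5a2, at 0.113, -0.0502 and -0.315. The changes from myotubes to AraC-treated myotubes were -0.369, -0.477 and -0.265 across these 3 neighbouring bins. From 1 Mb after Col3a1 the chromosome lay in B and changed little after AraC: the bin of Dnah7b and Dnah7c changed by 0.0216 and that of the zinc transporter gene Slc39a10 by 0.0166. On the far side of the stretch, 2 Mb before Col3a1, the bin of Fhl2 and Nck2 stayed in A at 0.571, 0.519 and 0.313.

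Col5a3, a type V chain with a more restricted distribution than the others, had the largest fall of the set after AraC. Its scaled PC1 stood at 0.581 in myoblasts, at 0.454 in myotubes and at -0.176 after AraC. The change after AraC, -0.630 SD, was lower than in all but 0.0635% of autosomal bins. The profile correlation between myotubes and AraC-treated myotubes was 0.164 along chromosome 9 and 0.564 with other chromosomes. The mean coefficient with stable A bins of chromosome 9 fell from 0.0692 to -0.000135, and that with stable B bins rose from -0.0201 to 0.0156. On other autosomes, by contrast, the mean with A bins (0.0118) stayed above that with B bins (-0.00644) after AraC, and the component from other chromosomes was -0.0104, at the border. The bin itself sat on a compartment border. The 2 Mb before it held bins rich in olfactory receptor genes, in B between -0.995 and -0.898 in myoblasts, and the nearest of these changed by -0.0104 after AraC. After it lay gene-dense A bins, the first with the adhesion genes Icam1, Icam4 and Icam5 and the second with the chromatin regulators Carm1 and Smarca4. Those bins changed by -0.670 and -0.485 SD but remained in A at 1.02 and 1.27. Col5a3 was 1 of 14 coding genes in its bin, among them Dnmt1, the maintenance DNA methyltransferase, to which the same values apply.

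The regions just upstream of 4 members are shown because they belong to the members that changed sign after AraC, Col3a1 and Col5a3, and to the members that stayed highest in A and lowest in B, Col5a1 and Col11a1. Of the 9 genes, 6 had an entry in the RefSeq promoter table. Each sequence is the 250 bases before the RefSeq start, read 5′ to 3′ on the gene's own strand (GRCm38.p6, the assembly also called mm10), and capitals mark every match on either strand to TATAAA (the TATA box), to CCAAT (the CAAT box), to GGGCGG (the GC box) or to CANNTG (the E-box), none of which overlapped another here. Col3a1 lies at chr1:45311288-45311537 on the plus strand, Col5a3 at chr9:20815068-20815317 on the minus strand, Col5a1 at chr2:27886175-27886424 on the plus strand and Col11a1 at chr3:114030290-114030539 on the plus strand.
Col3a1: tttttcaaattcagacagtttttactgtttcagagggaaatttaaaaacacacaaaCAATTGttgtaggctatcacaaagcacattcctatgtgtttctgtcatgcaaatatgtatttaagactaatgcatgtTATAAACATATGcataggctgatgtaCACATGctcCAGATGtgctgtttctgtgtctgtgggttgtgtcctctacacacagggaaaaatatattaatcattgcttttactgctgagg
Col5a3: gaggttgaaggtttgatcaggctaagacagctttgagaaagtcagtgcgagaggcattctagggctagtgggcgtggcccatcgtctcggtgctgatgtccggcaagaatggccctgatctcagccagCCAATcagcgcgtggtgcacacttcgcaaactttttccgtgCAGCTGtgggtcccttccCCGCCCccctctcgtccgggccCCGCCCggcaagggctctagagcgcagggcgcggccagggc
Col5a1: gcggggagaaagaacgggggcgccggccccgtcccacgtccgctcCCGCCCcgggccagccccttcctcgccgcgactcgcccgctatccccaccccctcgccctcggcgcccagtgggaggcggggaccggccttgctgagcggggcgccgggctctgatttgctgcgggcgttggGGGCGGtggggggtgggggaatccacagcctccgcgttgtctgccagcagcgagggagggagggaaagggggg
Col11a1: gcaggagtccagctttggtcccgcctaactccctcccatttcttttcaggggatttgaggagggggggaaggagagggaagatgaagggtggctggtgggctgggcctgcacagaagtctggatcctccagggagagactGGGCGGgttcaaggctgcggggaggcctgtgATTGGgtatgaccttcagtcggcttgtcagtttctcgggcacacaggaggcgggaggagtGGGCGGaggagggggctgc
The Col3a1 window had 1 TATAAA, which ran directly into a CANNTG, 4 matches to CANNTG in all, and no CCAAT or GGGCGG. Its GC content was 35.2%, lower than in all but 5.00% of 32851 RefSeq windows of the same length, and it held no CG dinucleotide. The Col5a3 window, at 62.8% GC with 17 CG dinucleotides, had 1 CCAAT, 2 GGGCGG and 1 CANNTG and no TATAAA. The members that left A after AraC thus had unlike upstream sequences. The Col5a1 window had 76.4% GC, 28 CG dinucleotides and 2 GGGCGG, and that of Col11a1 had 62.4% GC, 7 CG dinucleotides, 1 CCAAT and 2 GGGCGG, so that the gene lowest in B was not poor in GC just upstream although its bin was. Of all windows 12.4% held TATAAA, 33.8% CCAAT, 32.7% GGGCGG and 66.2% CANNTG.

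Col2a1, the type II collagen gene, moved the other way. The scaled PC1 of its bin rose from 0.751 in myoblasts to 0.923 in myotubes and 1.49 after AraC. The change after AraC was higher than that of 98.5% of autosomal bins, yet the profile correlation was 0.982, so that the bin moved further along the same profile. Its mean coefficient with stable A bins of chromosome 15 was 0.0646, 0.149 and 0.195, and with stable B bins -0.00627, -0.0446 and -0.0791. Placement mattered for this gene, because its start site lay 4.69 kb inside the bin and only 16.1% of the gene fell within it. Col2a1 was 1 of 19 coding genes with a start site in that bin, among them Pfkm, the muscle phosphofructokinase gene, and a run of olfactory receptor genes. The bin that held most of Col2a1 had values of 0.794, 1.30 and 1.54, a rise of 0.506 at differentiation and of 0.243 after AraC. In both bins the scaled PC1 rose at each stage, but the stage at which the rise passed 0.5 SD differed between them. On the other side, the bins of the next 2 Mb, with Kansl2 and Ccnt1 in the first, stood between 2.11 and 2.28 in myotubes and changed by -0.125 to -0.0594 after AraC.

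**Figure D3:**
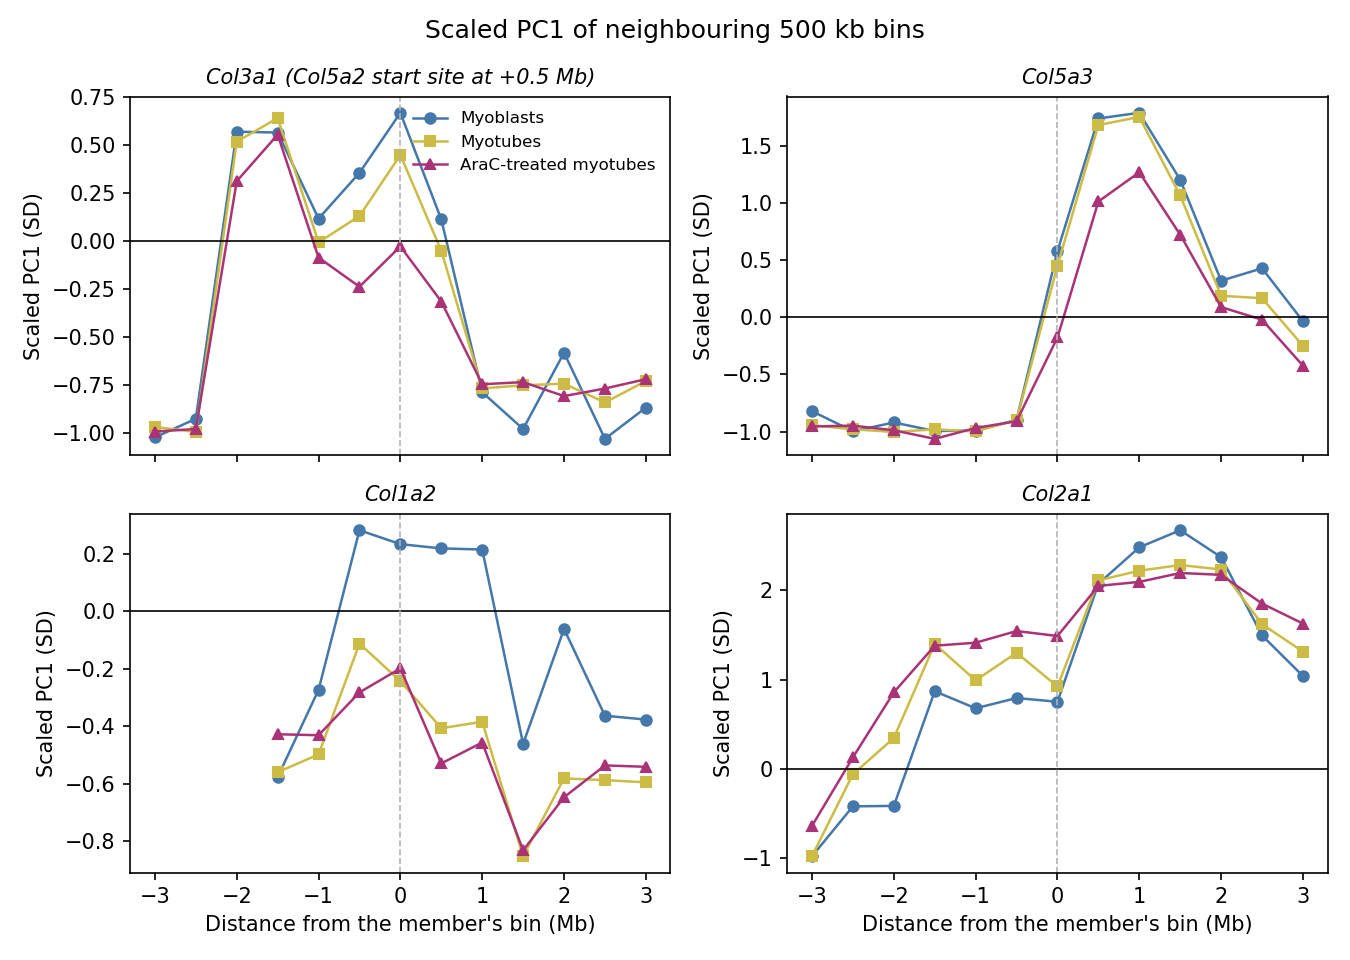
Scaled PC1 (vertical axes, SD, with a different range in each panel) of the 500 kb bins within 3 Mb of the bins of Col3a1, Col5a3, Col1a2 and Col2a1, against the distance from the member's bin (Mb), in myoblasts, myotubes and AraC-treated myotubes. The values of Col3a1 and of the bins on either side of it lie below 0 after AraC, Col5a3 sits on a border, the bins from 0.5 Mb before to 2 Mb after Col1a2 fall together at differentiation, and the bins of Col2a1 and just before it rise at each stage.

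Col5a2, whose chain joins that of Col5a1 in type V collagen, lies beside Col3a1 on chromosome 1, and the pair is transcribed in opposite directions on the plus strand (Col3a1) and the minus strand (Col5a2). Its start site was only 3.28 kb inside its bin, and 2.54% of the gene lay in it, so that nearly all of the gene body fell in the Col3a1 bin. Read by its start site, Col5a2 stood at 0.113, -0.0502 and -0.315 and changed sign at differentiation. Read by the middle of the gene, it took the values of Col3a1 and changed sign after AraC. The bin with the start site also held Wdr75, Gm5269 and Slc40a1, the iron exporter gene. Its profile correlation was 0.240 between myoblasts and myotubes, lower than in all but 6.73% of bins, and 0.799 between myotubes and AraC-treated myotubes. With other chromosomes the first of these was -0.00153. The coefficient between the adjacent bins of Col3a1 and Col5a2 was low for neighbours, at 0.00628 in myoblasts, 0.0248 in myotubes and 0.0280 after AraC. The median over 4673 pairs of adjacent bins was 0.0608, 0.0979 and 0.0813, and only 4.41%, 9.27% and 10.7% of these pairs had a lower coefficient. The size of this coefficient is not independent of the PC1 values of the bins, which came close to 0.

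Set directly against myoblasts, AraC-treated myotubes had 4 of 9 members with a changed sign, Col1a2, Col3a1, Col5a2 and Col5a3, all from A to B, against 10.2% of bins in either direction. This comparison shares its matrices with both comparisons above and adds their steps together. The bins of Col3a1 and Col5a2 are adjacent, so the 4 sign changes are not all in separate regions, and their count was not tested. Falls of at least 0.5 SD were seen in 2 members, Col5a3 (-0.757) and Col3a1 (-0.697), against 5.86% of bins, and a rise in 1, Col2a1 (0.736), against 7.09%. Col3a1 alone had a profile correlation below 0, -0.520, against 5.80% of bins. All 4 sign changes involved a value close to 0, since none remained without the lowest 20 percent of absolute PC1, a condition that left 0.846% of all bins changed. The median scaled change was -0.118 over the members and -0.0198 over all bins.

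The coefficients between fibrillar collagen bins were of both signs. Among the 35 pairs of members on different chromosomes, the mean coefficient was 0.0289 in myoblasts, 0.0232 in myotubes and 0.0146 after AraC. Over all bin pairs on different chromosomes the means were 0.00526, 0.00743 and 0.00306, with SDs of single pairs of 0.0446, 0.0890 and 0.0732. The members' means were above those of all pairs in each condition and below the mean for pairs of stable A bins, which was 0.0678, 0.117 and 0.0970. Coefficients were above 0 in 23, 16 and 14 of the 35 pairs, and the share of all bin pairs above 0 was not counted. The median over the members' pairs was 0.0207, -0.00253 and -0.00851, so it lay below 0 in myotubes and after AraC although the mean did not.

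The highest single coefficient lay between Col1a1 and Col5a1 in myoblasts and in myotubes and between Col2a1 and Col11a2 after AraC. Col1a1 and Col5a1 had 0.174 in myoblasts, 0.357 in myotubes and 0.274 after AraC. Since the SD of single pairs differed between conditions, these were 3.79, 3.93 and 3.69 SD above the mean of all pairs. The pair thus changed little on that scale. Col2a1 gained at each stage, from 0.0935 to 0.234 and 0.306 with Col5a1 and from 0.0528 to 0.202 and 0.312 with Col11a2. In SD above the mean of all pairs these were 1.98, 2.54 and 4.14 with Col5a1 and 1.06, 2.19 and 4.22 with Col11a2. Col5a3 lost instead: its coefficient with Col5a1 was 0.129 in myoblasts, 0.0893 in myotubes and -0.00634 after AraC. From the mean of all pairs these lay at 2.76, 0.919 and -0.128 SD. Col3a1 and Col5a3, which left A at the same stage, had a coefficient of 0.0249 in myotubes and 0.0366 after AraC, so their bins hardly resembled each other in profile. The bin of Col11a1 was at its lowest with Col5a1, at -0.0621, -0.141 and -0.113. In SD from the mean of all pairs these were -1.51, -1.67 and -1.58, again with little change.

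**Figure D4:**
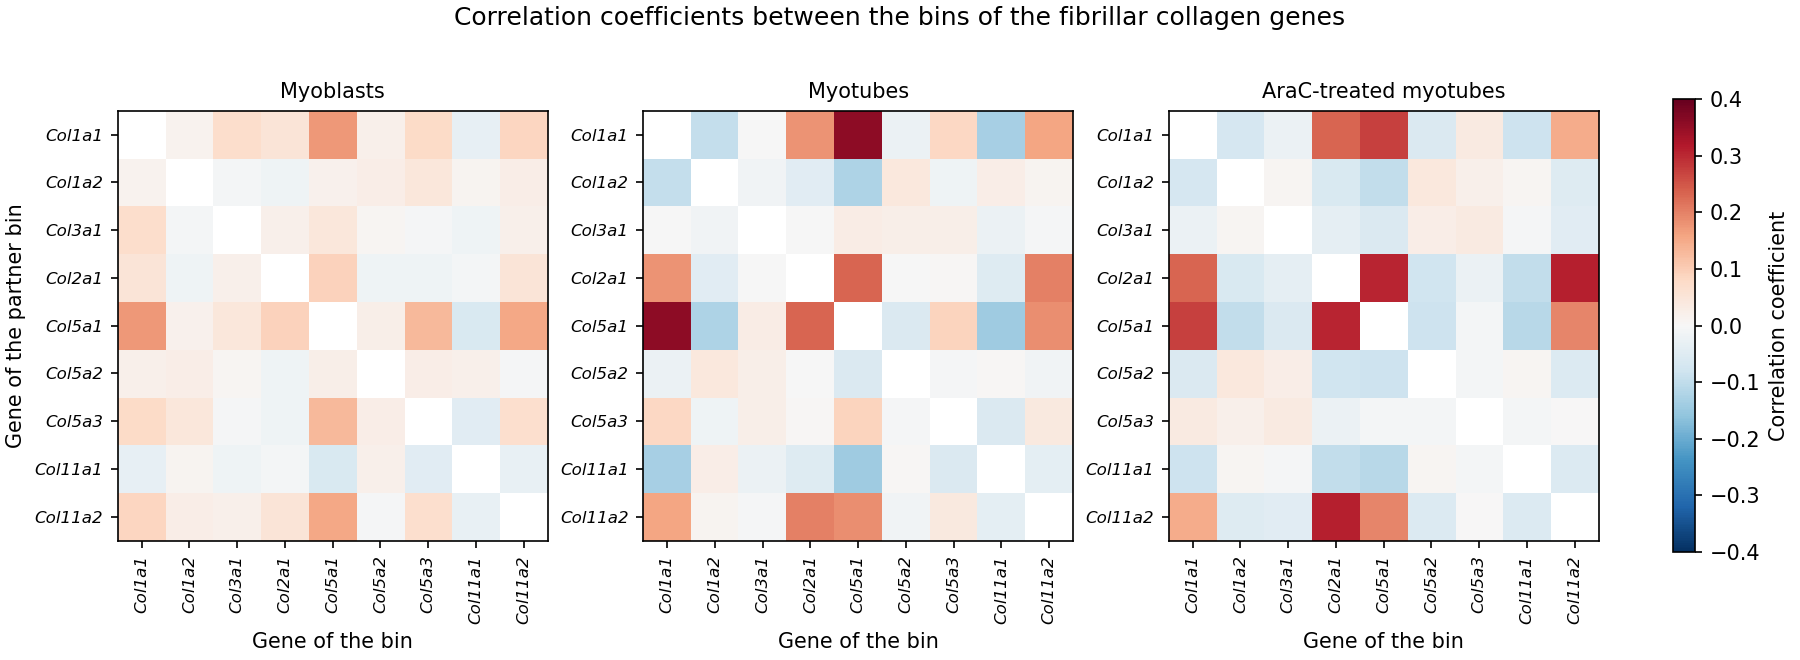
Correlation coefficients (colour scale from -0.4 to 0.4) between the bins of the 9 fibrillar collagen genes in myoblasts, myotubes and AraC-treated myotubes, with the diagonal left blank. The highest values join Col1a1, Col2a1, Col5a1 and Col11a2, up to 0.357 for Col1a1 with Col5a1 in myotubes, and those of Col3a1 stay between -0.0566 and 0.0718.

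The member bins had little in common in sequence and gene content. Their coding genes numbered from 1, in the bins of Col3a1 and Col11a1, to 24 in that of Col11a2. GC content ran from 36.2% in the bin of Col11a1, where only 1.65% of bins were lower, and 37.5% in that of Col3a1 to 50.6% in that of Col5a1, above 98.8% of bins. The members that left A spanned most of this range, with 40.8% in the bin of Col1a2, 39.4% in that of Col5a2 and 47.8% in that of Col5a3. HindIII, the enzyme used to cut the DNA, had 91 sites in the bin of Col1a1, 111 in that of Col11a2 and 114 in that of Col5a3, and only 0.254%, 1.80% and 2.43% of bins had fewer. Col11a1 had 196, more than 97.8% of bins. The part of site number in the values above was not tested.

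For each member, the bin on another autosome with the most similar scaled PC1 over the 3 conditions was found by Euclidean distance. Closest of all was the bin of Pter on chromosome 2 to that of Col1a2, at a distance of 0.0179, with values of 0.235, -0.253 and -0.213. For Col11a1 it was a bin without coding genes on chromosome 1 (distance 0.0189). For Col3a1 the nearest was the bin of Fam102b, Slc25a54, Slc25a24 and Vav3 on chromosome 3 at 0.0753, and for Col5a3 a bin with Nit2 and Filip1l on chromosome 16 at 0.119, the largest of these distances. For Col5a2 it was the bin of Dlc1 and AI429214 on chromosome 8 (0.0630). The coefficient between the Col3a1 bin and its nearest match was nevertheless low, at -0.00700, 0.0151 and -0.00279. The members in A in every condition had matches in gene-rich bins: Col1a1 with one on chromosome 16 that held Tbx1 (0.0617), Col2a1 with the Ugt1a genes on chromosome 1 (0.0523), Col5a1 with Kdm1a and Ephb2 on chromosome 4 (0.0593) and Col11a2 with prolactin family genes on chromosome 13 (0.107).

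The bin on another chromosome with the highest mean coefficient over the conditions was also found for each member. It reached 0.503 for Col5a1, with the bin of Scube3 and Ppard on chromosome 17, and 0.331 for Col2a1, with the bin of Rbfox3 and Enpp7 on chromosome 11. That same bin was the strongest partner of Col11a2, at 0.257, while Col1a1 had its strongest, 0.312, with the bin of Capn1 on chromosome 19. The members that left A all had absolute PC1 in the lowest 20 percent of their chromosome in myoblasts or after AraC. The size of their coefficients is not independent of those values. The strongest partners of these members were far weaker. They were 0.125 for Col5a3, with the bin of Camk2b on chromosome 11, 0.0938 for Col1a2, with that of Insr on chromosome 8, 0.0459 for Col5a2, with a bin without coding genes on chromosome 5, and 0.0381 for Col3a1, with that of Polr2d and Wdr33 on chromosome 18. Col11a1 reached 0.0862, with the bin of Taf4 on chromosome 2. The Col5a3 bin and its partner had coefficients of 0.145 in myoblasts, 0.169 in myotubes and 0.0597 after AraC.

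Genes that act with fibrillar collagens were read from 7 lists of other collagens, collagen processing, fibril assembly, receptors and degradation, 77 genes in all, of which 75 lay on autosomes and none in a member bin. Of these, 43 were in A and 20 in B in every condition. Among all bins outside chromosome 17, by comparison, 1418 were in A and 2615 in B in every condition. Bins with a coding gene were more often in A, at 46.1%, 44.4% and 43.3% in the single conditions. From myoblasts to myotubes 6 of the listed genes changed sign, 6 rose and 6 fell by at least 0.5 SD, and 4 had a profile correlation below 0. Over all autosomal bins the shares, in the same order, were 7.32%, 3.83%, 2.96% and 3.28%. From myotubes to AraC-treated myotubes 8 changed sign, 3 rose by at least 0.5 SD, none fell that far and 1 had a profile correlation below 0. The shares of all autosomal bins for this step were 5.12%, 2.18%, 0.381% and 1.16%. Several listed genes share a bin, so these counts are of genes and not of separate bins. Their median scaled change was -0.0621 at differentiation and -0.0400 after AraC.

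The 2 remaining fibrillar collagen genes kept their compartment: Col24a1 stood in A at 1.47, 1.62 and 1.39, and Col27a1 in B at -0.174, -0.440 and -0.531. The 11 network and beaded collagen genes, in 8 bins, had 7 in A in myoblasts, 7 in myotubes and 4 after AraC, and 4 genes fell by at least 0.5 SD at differentiation. These were Col4a1 with Col4a2 and Col6a1 with Col6a2, each pair in a shared bin, where 2.96% of all bins fell that far. The 9 fibril-associated collagen genes had 4, 5 and 6 in A, with 3 that rose by at least 0.5 SD at differentiation. Of the genes that rose, Col9a3 and Col20a1 share a bin, and 3.83% of all bins rose that far. Col12a1 entered A at differentiation, and Col9a2 after AraC, where it stood at 0.0488. The median scaled change of this list was 0.257 at differentiation and -0.0407 after AraC. For the network and beaded list these were -0.131 and -0.0604, so the medians differed in sign only at differentiation. Of 24 processing genes 18, 17 and 18 were in A, and of 12 cross-linking and assembly genes 10 in each condition. Of 9 receptor genes 6, 6 and 5 were in A, with 4 sign changes at differentiation, and of 8 degradation genes 4 in each condition. Over all bins 7.32% changed sign at differentiation. Of bins with a coding gene, 46.1%, 44.4% and 43.3% were in A in myoblasts, myotubes and AraC-treated myotubes.

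The largest rises after AraC among the listed genes were those of Itgb1, the beta subunit of the collagen-binding integrins, and P3h1, a prolyl hydroxylase of collagen. The scaled PC1 of Itgb1 was -0.138 in myoblasts, 0.991 in myotubes and 1.67 after AraC, a change of 0.676 at the last stage, and that of P3h1 was 0.651, 0.774 and 1.39, a change of 0.619. The largest falls were those of Mmp14, a membrane collagenase, by 0.443 to 0.425, and Ddr1, a collagen receptor kinase, by 0.347 to 1.08. Both genes stayed in A, unlike Col3a1 and Col5a3. Leaving A at this stage was not particular to the fibrillar genes. The bin of Col4a1 and Col4a2 went from 0.294 in myotubes to -0.0377 after AraC, and that of Col8a1 from 0.0661 to -0.280. Pcolce2 and Itga2 also went from A to B, whereas Col9a2, Crtap and Tll2 went from B to A.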

How the data were processed

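Hi-C libraries of C2C12 cells were made by the authors with HindIII and diluted ligation. Per the study's methods, reads were mapped with bowtie in the HiCUP pipeline, HOMER matrices were made per replicate at 500 kb, and libraries were then pooled for matrices at another resolution. The labels of both replicates name the same 500 kb matrix, which was taken here as pooled. The deposited values, a score between bins, are HOMER correlation coefficients, 1 matrix per condition, so depth and replicate spread cannot be read from them. The labels name both GRCh38 and mm10 as build; bin names and chromosome ends followed mm10, and genes were placed with GENCODE annotation of that assembly.

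PC1 was computed here per autosome by singular value decomposition of the column-centred block of coefficients, signed by coding gene density, with NumPy 2.4.6, SciPy 1.17.1 and Matplotlib 3.10.9 under Python 3.11.15. Scaled PC1 is PC1 over its SD for that chromosome and condition. Changes of 0.5 SD and profile correlations below 0 were counted, and code was tested on simulated data. Only autosomes were used.

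Members, gene lists and limits were chosen with earlier results of these data known. The genes named were all members, the coding genes of their bins where 6 or fewer, the nearest and strongest partner bins, and of the lists the 2 largest rises and 2 largest falls after AraC. Neighbouring genes, Sgca, Pfkm and Dnmt1 were picked after values were seen. So were the listed genes named for a shared bin or for a sign change after AraC. Alternatives were other PCA forms, placements, thresholds and correlation measures.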

Additional observations from a re-analysis of the deposited data

How the results depend on the processing

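No paired analysis was possible because both replicates of a condition were deposited as 1 pooled matrix. Sign changes from myoblasts to myotubes numbered 2, but 0 without column centring, 1 from other chromosomes (Col5a2), 1 by the middle of the gene (Col1a2) and 0 above the 20th percentile of absolute PC1. From myotubes to AraC-treated myotubes they numbered 2, but 1 in the next bin and 0 above that percentile, and from myoblasts to AraC-treated myotubes 4, but 2 without centring and 0 above the percentile. Rises of 0.5 SD at differentiation numbered 0, but 1 (Col2a1) by the middle of the gene and 1 in the next bin, and falls 0, but 1 (Col1a2) without centring and 2 at 0.25 SD. After AraC, rises numbered 1, but 0 by the middle of the gene, 0 in the next bin, 2 at 0.25 SD and 0 at 1 SD, and falls 1, but 3 at 0.25 SD and 0 at 1 SD. From myoblasts to AraC-treated myotubes rises numbered 1, but 0 at 1 SD, and falls 2, but 4 at 0.25 SD and 0 at 1 SD. Profile correlations below 0 numbered 0 at differentiation, but 1 with other chromosomes, and 1 in each of the other comparisons, but 2 below 0.2 and 2 by the middle of the gene, where Col5a2 took the Col3a1 bin. In the next bin, that of Col5a2, the Col3a1 correlations reversed to 0.799 (myotubes to AraC-treated myotubes) and 0.219 (myoblasts to AraC-treated myotubes), and the mean coefficients between members were 0.0421, 0.0583 and 0.0383 in the 3 conditions in place of 0.0289, 0.0232 and 0.0146. Of 189 scaled changes of single members under alternatives none that was past 0.5 SD reversed, and 113 stayed within the SD of split partner bins (0.0554, 0.0295 and 0.0642 in the 3 comparisons). Of 135 profile correlations 115 stayed within 0.1. The falls of Col3a1 and Col5a3 after AraC were found in odd and in even partner bins alike. Both sets of partner bins are columns of the same pooled matrix, so their agreement is not independent support for these falls. For the same reason the SD of split partner bins is not a spread between replicates. A bin of 500 kb holds more than the gene, and a correlation coefficient does not show how many joined DNA pairs it rests on.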
